A study of Arabidopsis thaliana with 12 samples.

Results

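The genes described are 5 nuclear genes of Arabidopsis thaliana for pentatricopeptide repeat (PPR) proteins: AT5G15280, AT5G40030, AT2G46050, AT1G79080 and CRR21 (AT5G55740). They are the genes of this list whose array probe is annotated with exactly 1 gene, and all 5 were found, among 692 such probes and 3439 probes in all. The members were chosen by their normalised difference between the treatments in earlier results of these data, so that difference is given below as a description and without a test. The arrays report RNA levels of wild-type plants, ecotype Wassilevskija, in a water group of 6 samples and a sucrose group of 6 samples. Plants of the sucrose group had spent 30 min in a medium labelled MS with 60 mM sucrose. The labels name no tissue, growth condition or duration of the water treatment. The medium and its sucrose cannot be told apart in this design. Nothing in the labels shows that replicates are separate cultures, so p-values measure only the spread among the arrays at hand, which may be technical.

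PPR proteins are made of tandem copies of a short, degenerate helical repeat. They form one of the largest protein families of land plants. Almost all are encoded in the nucleus and imported into chloroplasts or mitochondria. There they bind organelle transcripts and are needed for RNA editing, splicing, stabilisation or translation. CRR21, named for chlororespiratory reduction, is an RNA editing factor for the chloroplast ndhD transcript, which encodes a subunit of the chloroplast NDH complex. The sources used here give no organelle target for the other 4 genes, and the files hold no probe sequences.

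The deposited intensities run from 0 to 100 on a linear scale whose unit is not stated. The median probe lay between 0.171 and 0.188 on the water arrays and between 0.422 and 0.459 on the sucrose arrays. The arrays of the groups thus differed in their distribution, and each gene is given by its readings on 3 scales: the deposited intensity, the percentile rank of the probe among all probes of its own array, and the log2 intensity after quantile normalisation, which gives every array the same distribution. Levels are compared between samples for 1 probe and not between probes. Over all 2915 tested probes the median log2 difference, sucrose medium minus water, was -0.03 after quantile normalisation, with quartiles at -0.54 and 0.52. Of these probes 64.4% passed an adjusted p of 0.05 (limma, Benjamini-Hochberg), 31.5% as higher and 32.9% as lower in sucrose medium. Of the 8 leaf markers on a fixed list 3 were on a probe with 1 gene, and of the 5 root markers 0 were, so the plant parts sampled could not be checked. The leaf markers were the photosystem subunits PSBY at a log2 difference of -0.79 (limma, adjusted p = 3.97e-05), PSAN at -0.24 (adjusted p = 0.0901, and 0.0229 with the replicate block) and PSBW at 0.05 (adjusted p = 0.745). With median centring PSBY, PSAN and PSBW were at -1.60, -1.48 and -1.74.

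Of the 5 genes, 4 were higher in sucrose medium and CRR21 was lower relative to the rest of the array. For AT5G15280, AT5G40030, AT2G46050 and AT1G79080 every sucrose sample lay above every water sample on the deposited scale. The same held for the values left after normalisation, which for AT5G15280 are only 4 in water, since 2 were listed at 0. Such a separation upwards was seen for 63.6% of tested probes on the deposited scale and for 21.0% after normalisation. The groups of CRR21 overlapped on both scales. A separation downwards was seen for 4.43% of tested probes on the deposited scale and for 23.3% after normalisation. The normalised differences ran from 0.72 for AT1G79080 to 4.83 for AT5G15280, and CRR21 was at -0.999. Since these differences were used to pick the genes, their count and their direction say nothing about the family.

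**Figure D1:**
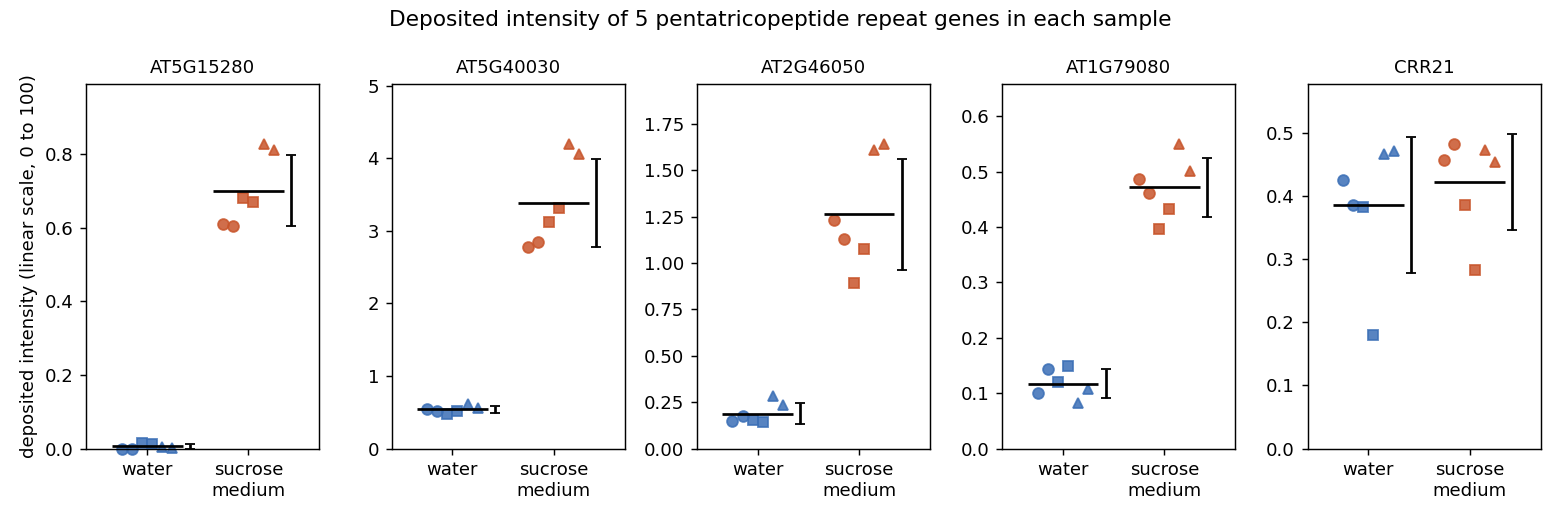
Deposited intensity (linear axis from 0, a separate range for each gene) of the 5 genes in 6 water and 6 sucrose samples; circles are replicates 1 and 2, squares 3 and 4, triangles 5 and 6, horizontal lines are group means and vertical bars SD. The first 4 genes separate the groups, AT5G15280 lies at or next to 0 in water, and the CRR21 groups overlap, with replicate 4 lowest in both.

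AT5G15280 was listed at 0 or close to it in every water sample and lay well above 0 in every sucrose sample. Its deposited intensity was listed at 0 in water replicates 1 and 2. It was 0.0161 and 0.0127 in water replicates 3 and 4, and 0.00459 and 0.00203 in replicates 5 and 6. In sucrose medium the values were 0.610, 0.603, 0.680, 0.671, 0.826 and 0.811 for replicates 1 to 6. The lowest sucrose value was thus 37.4 times the highest water value. On its own array the probe ranked between the 7.15th and the 15.9th percentile in water and between the 63.4th and the 74.6th percentile in sucrose medium.

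After normalisation, with values of 0 treated as missing, AT5G15280 was at -5.92 ± 0.82 in water (log2 intensity, SD, n = 4) and at -1.09 ± 0.21 in sucrose medium (SD, n = 6). The log2 difference of 4.83 ± 0.31 (SE) corresponds to 28.5-fold. It leaves out the 2 water samples listed at 0. With 0.05 added to every value before log2, which keeps all 12 samples, the log2 difference was 2.93 ± 0.16 (SE), since the added amount lies above all of its water values. Its difference was the highest of the 2915 tested probes when values of 0 were missing and 4 values per group were required. It was not the highest with 0.05 added (percentile 99.6) or with at least 2 values above 0 per group (percentile 99.97). Among the water samples it varied more than any of the other 4 genes, and the 2 pairs of neighbouring numbers stood apart from each other there. The size of the difference thus rests on how values near 0 are treated, while the order of the groups does not.

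AT5G15280 was 1 of 87 probes that were listed at 0 in at least 2 water samples and above 0 in every sucrose sample. The opposite pattern was found for 2 probes. Counting 1 or more samples at 0, the numbers were 136 and 16. The water arrays had between 453 and 516 probes at 0 and the sucrose arrays between 430 and 468. No label or header says whether a value of 0 marks a signal under background or a failed spot.

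AT5G40030 was the most even of the 5 genes in water. Its deposited intensity there had a lowest value of 0.473, a median of 0.535 and a highest value of 0.614. In sucrose medium the lowest was 2.78, the median 3.22 and the highest 4.19. The groups were far apart, with the lowest sucrose value 4.53 times the highest water value. The group means were 0.540 ± 0.047 and 3.38 ± 0.60 (SD, n = 6 each), a ratio of 6.27 on the deposited scale. After normalisation the log2 intensities were -0.46 ± 0.08 and 1.81 ± 0.34, and the log2 difference of 2.28 ± 0.14 (SE) corresponds to 4.84-fold. The probe's rank went from between the 79.8th and 83.0th percentile to between the 96.0th and 97.5th. Over the 6 same-numbered sample pairs the deposited ratio lay between 5.09 and 7.20.

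AT2G46050 moved from the middle of the array to its upper part. Its deposited intensity had a lowest value of 0.144, a median of 0.163 and a highest value of 0.282 in the water group. In sucrose medium these values were 0.895, 1.18 and 1.64. Replicates 5 and 6 were the highest in both groups. The means were 0.189 ± 0.057 and 1.26 ± 0.30 (SD, n = 6 each), a ratio of 6.68. The normalised log2 intensities were -1.82 ± 0.33 and 0.02 ± 0.45, with a log2 difference of 1.84 ± 0.21 (SE), or 3.58-fold. The median rank went from the 48.2nd to the 86.7th percentile. The 6 paired log2 differences lay between 1.42 and 2.10, and the SE was 0.10 when replicate numbers entered the fit as a block.

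AT1G79080 had the smallest of the 4 upward differences, and without scaling its log2 difference of 2.03 compares with 1.09 for the median probe. Its deposited intensity in water had a lowest value of 0.0817, a median of 0.113 and a highest value of 0.150. In sucrose medium the lowest was 0.397, the median 0.474 and the highest 0.549, with no overlap. The ratio of the means was 4.02 (0.117 ± 0.026 and 0.471 ± 0.054, SD, n = 6 each). After normalisation the log2 intensities were -2.45 ± 0.34 and -1.73 ± 0.16, and the log2 difference was 0.72 ± 0.15 (SE), or 1.65-fold. The rank changed from a median at the 35.6th percentile to one at the 53.5th. The closest samples of the groups were near each other in rank, at the 44.8th percentile in water and the 46.1st in sucrose medium. The paired log2 differences ranged widely, from 0.22 to 1.43. When arrays were fitted to the average water array with a straight line, the difference was -0.50 ± 0.78 (SE). That value lies within its SE of 0, so the direction did not hold with that scaling and no opposite direction was resolved.

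**Figure D2:**
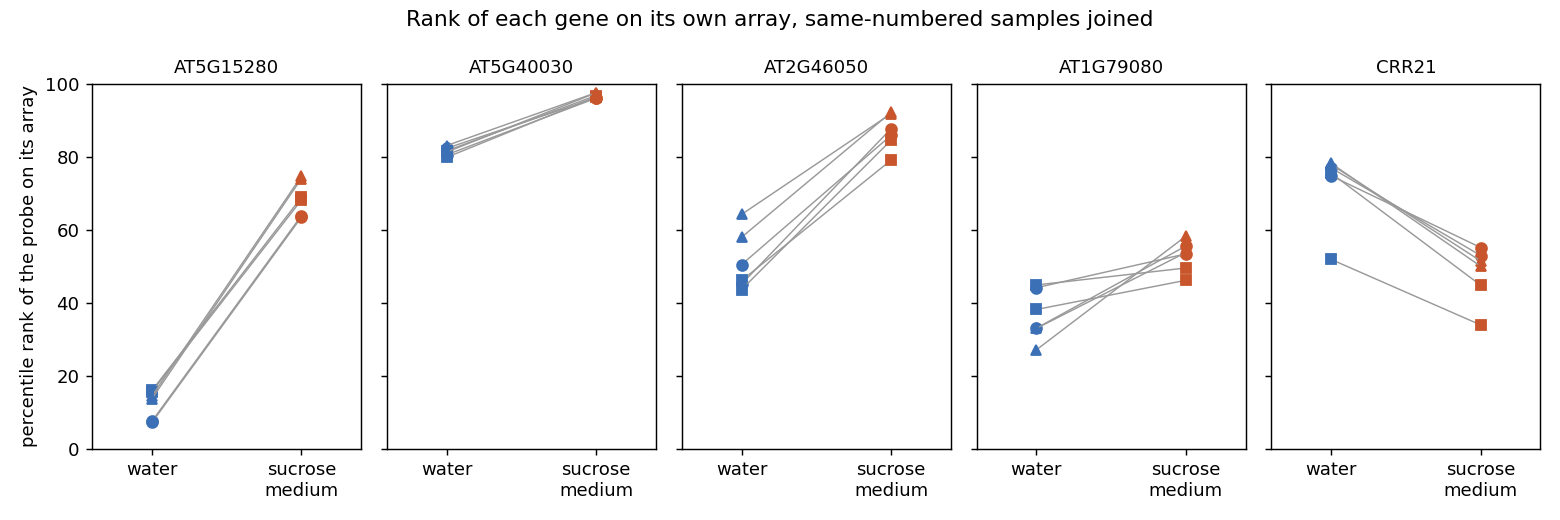
Percentile rank of each probe among all probes of its own array (0 to 100, linear axis) in water and in sucrose medium, with same-numbered samples joined by lines and symbols for replicates 1 and 2 (circles), 3 and 4 (squares) and 5 and 6 (triangles). All lines rise for the first 4 genes, with the narrowest gap between groups for AT1G79080, and all 6 lines for CRR21 go down; tied values of 0 share a mean rank.

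CRR21 was the gene of the 5 that was lower in sucrose medium, and only relative to the other probes. Its deposited intensity hardly differed. The lowest, median and highest values were 0.181, 0.406 and 0.471 in the water group. They were 0.283, 0.456 and 0.482 with sucrose. The means were 0.385 ± 0.107 and 0.422 ± 0.076 (SD, n = 6 each), a ratio of 1.10, and the groups overlapped over most of their range. In the same-numbered pairs the deposited value was higher in sucrose medium in 5 of 6 pairs. The median of the arrays was meanwhile higher, so the probe's median rank went from the 76.2nd percentile in water to the 50.7th in sucrose medium. After normalisation the log2 intensities were -0.92 ± 0.43 and -1.92 ± 0.32, and the log2 difference was -0.999 ± 0.205 (SE). It was below 0 in 6 of 6 pairs, between -1.23 and -0.72. Without any scaling the difference was 0.17 ± 0.23 (SE), against a median of 1.09 over all tested probes.

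The CRR21 values were low in the samples numbered 4 in both groups. Water replicate 4 was at 0.181 against 0.382 to 0.472 in the other 5 water samples. Sucrose replicate 4 was at 0.283 against 0.385 to 0.482 in the others. After normalisation water replicate 4 lay at -1.79 and overlapped with the sucrose group, which reached up to -1.64. Without water replicate 4 the log2 difference was -1.16. With replicate numbers as a block the difference stayed at -0.999 and its SE was 0.09 in place of 0.21.

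**Figure D3:**
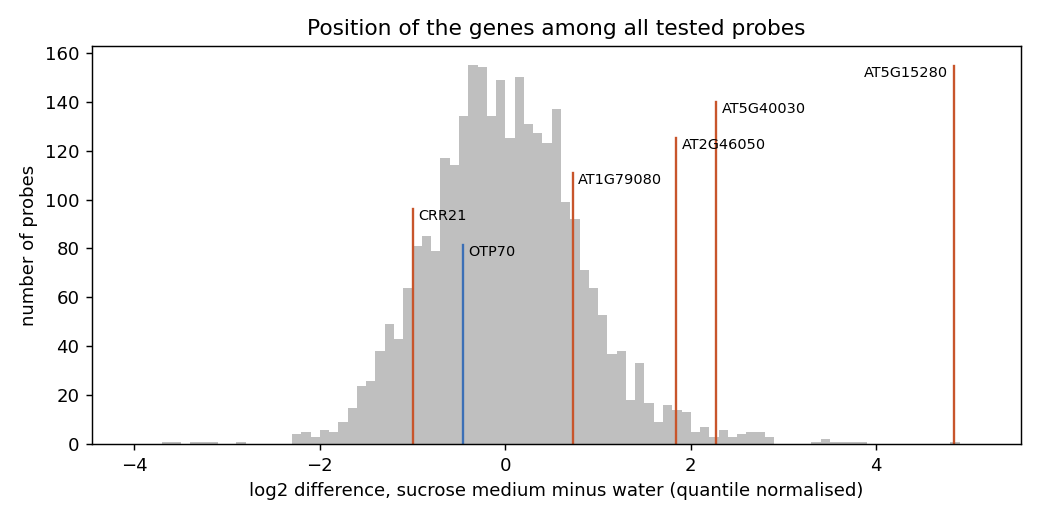
Number of probes by log2 difference, sucrose medium minus water, after quantile normalisation, for all 2915 tested probes (grey), with vertical lines at the 5 genes (red) and at OTP70 (blue); line heights carry no value. AT5G15280 is at 4.83, the highest here but not with 0.05 added or with 2 values per group required; AT5G40030 and AT2G46050 lie in the upper tail, and CRR21 lies at -0.999 in the lower part of the distribution.

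Placed among all tested probes by their normalised difference, AT5G15280 was the highest, subject to the treatment of 0 described above. AT5G40030 was number 36 from the top and AT2G46050 number 73. AT1G79080 was number 498 from the top, and CRR21 was number 299 from the bottom. The 5th and 95th percentiles of all differences were -1.29 and 1.42, so AT1G79080 and CRR21 lay inside that range and the other 3 genes above it.

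The scaling changed the sizes of all 5 differences. Without scaling the log2 differences were 6.71 for AT5G15280, 2.63 for AT5G40030, 2.76 for AT2G46050 and 2.03 for AT1G79080. These are to be read against the shift of 1.09 of the median probe. With median centring AT5G15280 was at 5.46 and AT5G40030 at 1.37. AT5G40030 exceeded AT2G46050 with quantile normalisation, cyclic loess, the straight line and 0.05 added, but was below it with median centring and without scaling, so the order of these genes is not settled. With the straight line CRR21 was at -1.81, and AT5G15280 could not be tested. AT5G15280 had the highest difference of the genes in the other 5 settings drawn, and CRR21 was the lowest of the 5 genes in all 6.

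**Figure D4:**
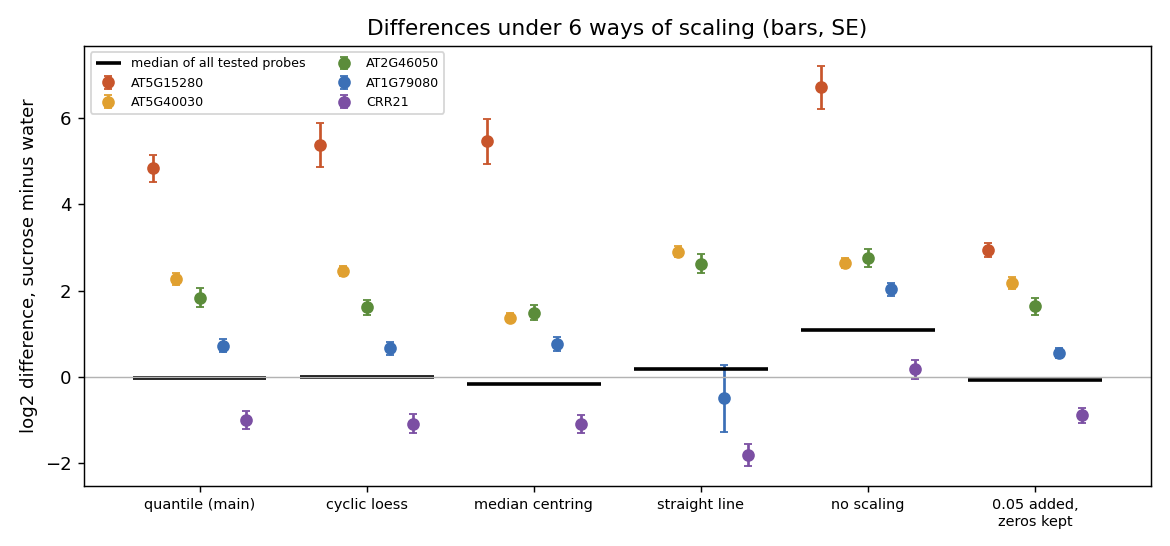
Log2 difference, sucrose medium minus water, of the 5 genes (points, bars SE) under 6 ways of treating the intensities, with the median of all tested probes as a black line. AT5G15280, AT5G40030 and AT2G46050 lie above the line in each setting where they were tested, CRR21 lies below it in all 6, and AT1G79080 lies below it with the straight line.

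Within the groups the 5 genes did not vary together as 1 block. The deviations of the samples from their group means were compared after normalisation, as a description. Samples numbered 1 and 2, 3 and 4, and 5 and 6 were alike on the whole arrays, so the points are not independent. AT5G40030 and AT2G46050 were the most alike of the 10 gene pairs (Pearson's r of the deviations 0.67 over 12 samples), both with sucrose replicates 5 and 6 high. AT5G15280 and AT1G79080 had an r of 0.57 over the 10 samples in which AT5G15280 was above 0. The other 8 pairs lay between -0.38 and 0.46, the former for AT5G15280 with CRR21 and the latter for AT2G46050 with CRR21.

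The likeness of neighbouring numbers was seen most plainly for AT5G15280 in sucrose medium. There the samples of a neighbouring pair differed by at most 0.03 on the log2 scale, against up to 0.49 between other samples. For AT5G40030 in sucrose medium these values were 0.15 and 0.75. The likeness was not seen for every gene and group. In water the median difference of AT5G40030 was 0.11 within neighbouring pairs and 0.07 between other samples. For AT1G79080 in water these medians were 0.36 and 0.39. Taken within the pairs of neighbouring numbers, the log2 difference of AT5G40030 was 1.96 for replicates 1 and 2, 2.24 for 3 and 4, and 2.63 for 5 and 6. That of AT2G46050 was 1.90, 1.66 and 1.96 in the same order. AT1G79080 had 0.71, 0.31 and 1.16, and CRR21 had -0.89, -0.97 and -1.13. AT5G15280 had 4.14 for replicates 3 and 4 and 5.76 for 5 and 6. All of these kept the direction of the groups, and AT1G79080 varied most relative to its size. They are parts of the difference by which the genes were picked, so the shared direction is no separate evidence. Sucrose replicates 5 and 6, the highest on the deposited scale for AT5G15280, AT5G40030, AT2G46050 and AT1G79080, also had the highest array medians of their group, 0.459 and 0.455. Water replicates 5 and 6, the highest for AT2G46050, had the highest medians of the water arrays, 0.188 and 0.186. The part of the array medians in these values was not tested.

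**Figure D5:**
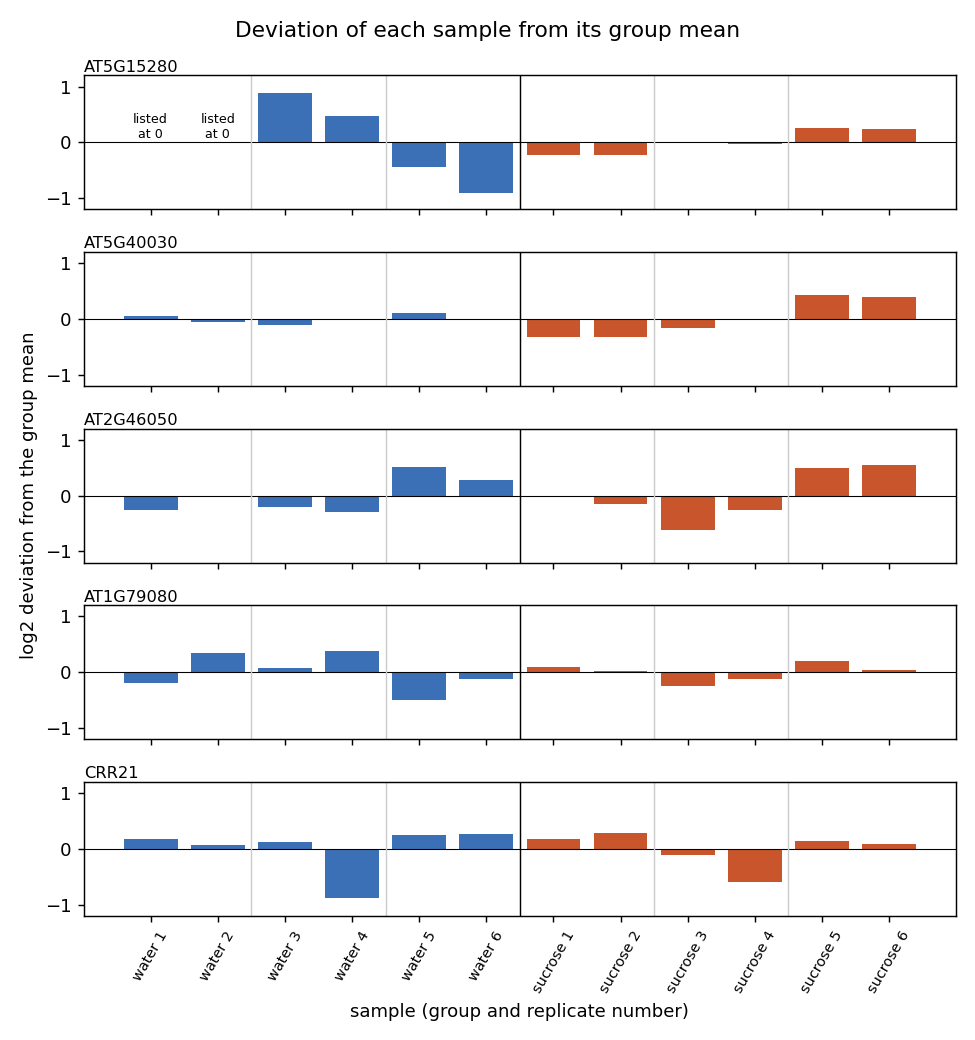
Deviation of each sample's normalised log2 intensity from its group mean for the 5 genes, water samples in blue and sucrose samples in red, with thin lines between replicates 2 and 3 and between 4 and 5. CRR21 is low in replicate 4 of both groups, AT2G46050 is high in replicates 5 and 6 of both groups, and AT5G15280 is listed at 0 in water replicates 1 and 2.

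Genes whose deviations were most like those of each member were taken from the 1-gene probes with a value above 0 in all samples. For AT5G15280 these were AT5G06790, AT4G23080 and AT2G21960 (r of 0.86, 0.86 and 0.81 over 10 samples). For AT5G40030 they were AT3G09250, AT3G04500 and AT3G06200 (0.90, 0.88 and 0.85 over 12 samples). For AT2G46050 they were AT3G25410, AT2G22890 and AT2G04790 (0.91, 0.90 and 0.89). These have log2 differences of -0.98, -1.06 and -0.12 between the treatments. For AT1G79080 they were AT5G65250, AT5G52970 and AT5G63460 (0.81, 0.81 and 0.72). For CRR21 they were AT4G27390, AT2G28790 and AT2G26110 (0.89, 0.84 and 0.81). In the order named, the like genes of AT5G15280 had log2 differences between the treatments of 0.62, 0.52 and 0.25. These differences were 0.36, 0.44 and 3.85 for AT5G40030, 0.20, 0.42 and 0.60 for AT1G79080, and 0.34, -0.36 and 0.26 for CRR21. The median r over the 565 or 566 genes compared lay between -0.12 and -0.02 for the 5 genes. The highest r lay between 0.81 and 0.91, and the lowest between -0.95 and -0.80.

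Of 3 further PPR genes found on probes with 1 gene, only OTP70 was measured well enough to be tested. The 3 came from a list of 23 loci and the later addition of OTP70. Other PPR genes on the array may thus have been missed. OTP70 (AT4G25270) is a PPR protein of chloroplast intron splicing, and it was added after the annotation had been read. Its deposited intensity had a lowest value of 0.465, a median of 0.488 and a highest value of 0.571 in water. In sucrose medium these values were 0.618, 0.725 and 0.873. All sucrose samples lay above all water samples on this scale. Relative to the rest of the array it fell: the normalised log2 intensities were -0.53 ± 0.15 and -0.99 ± 0.23 (SD, n = 6 each), and the log2 difference was -0.46 ± 0.11 (SE; limma, adjusted p = 0.00393), below 0 in 6 of 6 pairs. Of all tested probes 32.9% were called lower, so this call is a common one. It was lost with averaged pairs of neighbouring samples (adjusted p = 0.0655) and with the straight line (-0.10, adjusted p = 0.635). Without scaling OTP70 was called in the other direction, at 0.54 (limma, adjusted p = 0.000159). That difference was below the median of 1.09 over all tested probes.

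OTP85 (AT2G02980), an editing factor that also acts on ndhD, was listed at 0 in 11 of 12 samples, with 0.0231 in water replicate 5. AT3G22690, which encodes a PPR protein, was listed at 0 in all 12. Neither could be tested, and their 0 values say nothing about the RNA. Of 59 loci on 4 fixed lists of related genes, for editing partners, organelle RNA splicing and decay, organelle RNA polymerases with sigma factors, and the NDH complex, 2 were on a probe with 1 gene. Both belong to the NDH complex, whose ndhD transcript CRR21 edits. NdhS (AT4G23890), the subunit of the ferredoxin binding site, had a deposited intensity of 5.83 ± 0.74 in water and 4.84 ± 0.40 in sucrose medium (SD, n = 6 each). Its normalised log2 difference was 0.03 ± 0.09 (SE; limma, adjusted p = 0.804), with 2 of 6 pairs higher. With median centring it was at -1.53 (adjusted p = 2.49e-08). NdhN (AT5G58260) was listed at 0 in 11 of 12 samples.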

How the data were processed

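For each probe the authors deposited 1 linear intensity per array, 12 in all, on a scale from 0 to 100; how they were corrected, scaled and labelled is not given in the sources used. Groups and replicate numbers came from the titles. Probes were named from the platform annotation, updated through gene identifiers to RefSeq TAIR10.1 (690 of 692 1-gene probes matched); 870 probes with several genes were not used. Values of 0 were taken as missing, the rest as log2, quantile normalised. Each probe with 4 or more nonzero values per group was fitted with limma 3.58.1 under R 4.3.3 by lmFit and eBayes. The test was two-sided and without a block, p-values were adjusted by Benjamini-Hochberg over every probe fitted, and 0.05 was the threshold. Figures used matplotlib 3.10.9 in Python 3.11.15. The number of arrays limits the precision.

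The members, lists and tests were chosen with earlier results of these data known. Named were the 5 genes, the other PPR genes of a list of 23 loci, the measured genes of 4 further lists, and the 3 genes most like each member. A search of the gene names and synonyms for the family name matched 0 probes with 1 gene. OTP70 was added after the annotation had been read. Promoter motifs and protein features were planned but not analysed here, for lack of sequences.

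Same-numbered samples of the groups correlated in their deviations from the group means at 0.280 to 0.450 in all 6 pairs (2805 probes), against 0.162 to 0.282 for the other number of a neighbouring pair and -0.290 to 0.045 for the rest. The numbers were used to pair the samples in the paired differences and in the block alternative, but not in the main fit. The SE and p-values of the main fit thus leave this likeness out. Part of the likeness lies with the neighbouring pair, and the labels state no pairing. Alternatives were other scalings, other treatments of 0 and of 100, the block, averaged neighbouring samples and leaving out each sample.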

Additional observations from a re-analysis of the deposited data

Results flagged for a closer look

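In CRR21, water replicate 4 lay far below the other 5 water samples, at a normalised log2 intensity of -1.79. Its gap to the nearest of them took up 83.0% of the range of the group. It was the only such sample among 14 gene and group combinations examined. Chance gives about 1 in 20 for each combination, so 1 among 14 can arise by chance. The combinations are also not independent. The sucrose sample of the same number was also the lowest of its group, at -2.51. What set these samples apart was not tested.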

How the results depend on the processing

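Directions held for AT5G15280, AT5G40030 and AT2G46050 in all settings in which they were tested. Without scaling the log2 differences were 6.71, 2.63, 2.76 and 2.03 for AT5G15280, AT5G40030, AT2G46050 and AT1G79080, while CRR21 was at 0.17 and OTP70 at 0.54, above 0 but below the median of 1.09 over all probes in that setting. With the straight line AT1G79080 was at -0.50 ± 0.78 (SE), below 0 but within its SE of it. AT5G40030, AT2G46050 and CRR21 were at 2.90, 2.63 and -1.81 in that setting. There 1171 of 1876 probes passed against 1878 of 2915, and 0 of the other PPR genes passed. With median centring AT5G15280 and AT5G40030 were at 5.46 and 1.37, and with 0.05 added AT5G15280 was at 2.93. The number of other PPR genes past the threshold, 1, was 0 with averaged neighbouring samples. Of the 59 loci on the organelle RNA and NDH lists 1, NdhS, was tested, so the count of 0 past the threshold (limma; also 0 at unadjusted p under 0.05; 64.4% of all probes passed) says nothing about the lists; it was 1 without scaling and with median centring. NdhS changed sign there (-0.26 and -1.53) and with values at 100 as missing (-0.070); leaving out 1 sample gave -0.018 to 0.067. Of the probes past the threshold 48.9% were higher, 90.5% without scaling, 39.6% with median centring and 64.4% with the straight line. Leaving out 1 sample at a time gave 4.44 to 5.10 for AT5G15280 (with 2 water values enough, a setting chosen after seeing the data), 2.21 to 2.39 for AT5G40030, 1.75 to 2.001 for AT2G46050, 0.62 to 0.80 for AT1G79080, -1.16 to -0.89 for CRR21, and 1794 to 1845 probes past the threshold. Under the replicate block 2024 probes passed, OTP70 kept its call (adjusted p = 0.00511), NdhS stayed without one (adjusted p = 0.808), the leaf marker PSAN gained one (adjusted p = 0.0229), and AT5G15280 was at 4.95. The block changed no call of OTP70, NdhS, PSBY or PSBW. AT5G15280 could not be tested with the straight line or with only probes above 0 in all samples. Causes were not tested. Values near 0 limit the ratios of AT5G15280.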
